A study of Rattus norvegicus with 25 samples.

Results

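The genes described are the 7 subunits of respiratory complex I that the mitochondrial DNA itself encodes: Mt-nd1, Mt-nd2, Mt-nd3, Mt-nd4, Mt-nd4l, Mt-nd5 and Mt-nd6. They were chosen by Ensembl rat gene ID from the 32883 IDs of a table of RNA-seq read counts. The IDs were ENSRNOG00000030644 (Mt-nd1), ENSRNOG00000031033 (Mt-nd2), ENSRNOG00000033615 (Mt-nd3), ENSRNOG00000029707 (Mt-nd4), ENSRNOG00000031053 (Mt-nd4l), ENSRNOG00000029971 (Mt-nd5) and ENSRNOG00000029042 (Mt-nd6). All 7 had enough counts to be tested in both cohorts of the study.

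Complex I oxidises NADH, passes the electrons to ubiquinone and pumps protons across the inner mitochondrial membrane. Nuclear genes encode its peripheral arm, where NADH is oxidised, and the mitochondrial genes encode the core of its membrane arm. Mt-nd1 and Mt-nd3 lie near the site where ubiquinone is bound, Mt-nd2, Mt-nd4 and Mt-nd5 are the antiporter-like proton channels, and Mt-nd4l and Mt-nd6 lie between these 2 regions. The mitochondrial genome is transcribed on each strand as a long precursor that is then cut into single RNAs. Mt-nd6 is read from the opposite strand to the other 6, and Mt-nd4l and Mt-nd4 share an mRNA. In the intestine, absorptive cells use respiration to drive nutrient transport.

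The study set rat intestine after sham surgery beside intestine after RYGB, Roux-en-Y gastric bypass, in which a stretch of small intestine is joined to a small pouch made from the stomach. In the first cohort, 3 samples came from each of 4 groups: the alimentary limb after RYGB (RYGB_AL), which receives food from the pouch; the common limb after RYGB (RYGB_CL), where food meets bile and pancreatic juice; sham jejunum (Sham_JEJU); and sham ileum (Sham_IL). The cohort marked OLE, read from the design text as Otsuka Long-Evans Tokushima Fatty rats, which develop obesity and diabetes, held 4 samples of Glucotonic_OLE, 4 of Nonglucotonic_OLE and 3 of Sham_OLE. The first pair are sections of intestine after RYGB that the submitters named glucotonic or non-glucotonic, and Sham_OLE is distal intestine after sham surgery. The sources used here do not give the first cohort's strain or the age and sex of any rat. Nothing in the labels says that the samples of a group came from separate rats, so p-values measure only the spread between these samples.

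First-cohort samples held 23701208 to 49319824 counts, and OLE samples 18822931 to 46645317. The 2 largest IDs of the OLE libraries, ENSRNOG00000043866 and ENSRNOG00000030478, took 0.192% to 1.58% of a first-cohort sample and 45.7% to 65.9% of an OLE sample. The highest value in the first cohort was in Sham_JEJU 14-28, and the highest in the OLE cohort was in Glucotonic_OLE 19. Both samples also stood high for several of the subunits, so results that rest on them are given with and without them. No table used here pairs the IDs with symbols, so the labelled tissues could not be checked against marker genes. In such bulk tissue, fewer cells rich in mitochondria and less mitochondrial RNA per cell cannot be told apart.

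All 7 subunits took a far larger share of the counts in the OLE cohort than in the first. Their summed share of all counts was 0.0234% to 0.0885% in the first cohort (median 0.0403%, 12 samples) and 0.274% to 0.572% in the OLE cohort (median 0.371%, 11 samples). With the 2 largest IDs left out of the total, the ranges were 0.0235% to 0.0899% and 0.516% to 1.30%. The cohorts do not overlap on either scale.

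On the scale without those 2 IDs, in CPM (counts in each 1000000), the median of Mt-nd2 was 162 times as high in the OLE cohort as in the first, and that of Mt-nd4l 64.7 times. For Mt-nd6 the ratio of medians was 25.2, and for Mt-nd1 it was 23.7. The ratio was 11.6 for Mt-nd5, 10.4 for Mt-nd4 and 5.77 for Mt-nd3. For each of the 7, the lowest OLE sample lay above the highest sample of the first cohort, by 2.13 times for Mt-nd4 and by 25.6 times for Mt-nd2, the lowest and highest of these ratios. With all counts in the total, the ratios of medians ran from 2.65 (Mt-nd3) to 82.6 (Mt-nd2). Cohort, rats and library runs cannot be told apart here, so these ratios carry no test.

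The proportions among the subunits also differed between the cohorts. Mt-nd2, an antiporter-like subunit, made up a median of 3.65% of the counts on the 7 subunits in the first cohort (range 2.42% to 6.32%) and 29.8% in the OLE cohort (28.0% to 33.1%). Mt-nd3 went the other way, with a median of 27.4% (18.6% to 40.1%) against 7.67% (5.37% to 9.89%). Mt-nd4l took 0.986% against 3.12%, and Mt-nd5 40.0% against 27.0%, at the median. Mt-nd1 took 24.95% against 30.0%. Mt-nd4, at 1.08% against 0.531%, and Mt-nd6, at 0.945% against 1.29%, held small shares of the counts in both cohorts. These shares are of reads, not divided by gene length, and so do not rank the subunits by RNA molecules. Mt-nd4l and Mt-nd4 share an mRNA, yet their shares moved in opposite directions between the cohorts. Their counts therefore cannot both be read as the level of that mRNA, and the cause was not tested.

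**Figure D1:**
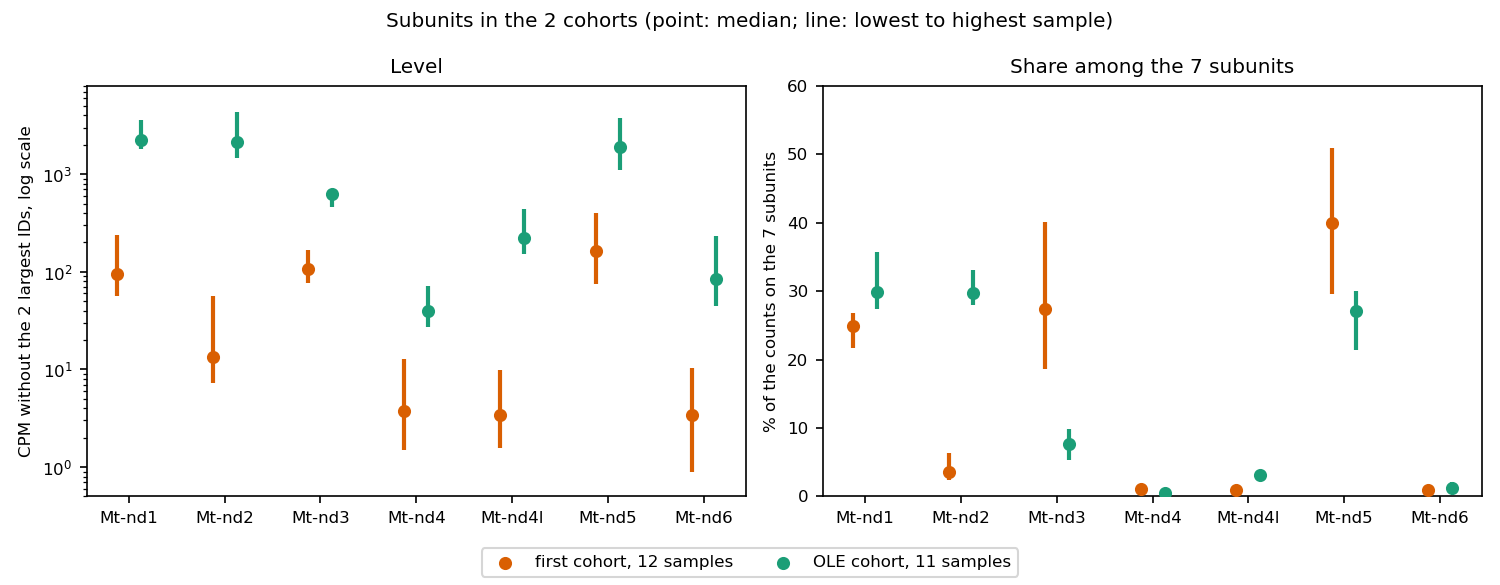
Left, level of each subunit on a log axis (CPM of all counts except the 2 largest IDs); right, its share of the counts on the 7 subunits in percent, for the first cohort (12 samples) and the OLE cohort (11 samples). Points are medians and lines run from the lowest to the highest sample; the level lines of the cohorts are apart for all 7, and the shares of Mt-nd2 (3.65% against 29.8%) and Mt-nd3 (27.4% against 7.67%) move in opposite directions.

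Within a cohort, levels are given below in CPM on library sizes scaled by TMM, separately for each cohort. In the first cohort the RYGB common limb had the lowest mean of the 4 groups for all 7 subunits, but not for Mt-nd6 on CPM without TMM and the 2 largest IDs (2.59 CPM, against 2.31 CPM in RYGB_AL). Sham jejunum had the highest mean for Mt-nd1 (138 ± 94.0 CPM, SD, n = 3), Mt-nd2 (27.4 ± 26.9 CPM), Mt-nd5 (239 ± 163 CPM) and Mt-nd6 (5.95 ± 4.13 CPM). The RYGB alimentary limb had the highest mean for Mt-nd3 (131 ± 17.3 CPM) and Mt-nd4 (6.29 ± 2.70 CPM), and sham ileum for Mt-nd4l (5.14 ± 2.87 CPM). The place of sham jejunum rested on Sham_JEJU 14-28. Without that sample, an alternative chosen after seeing the data, its means were 83.9 (Mt-nd1), 11.9 (Mt-nd2), 152 (Mt-nd5) and 3.57 CPM (Mt-nd6), and it had the highest mean for 0 of 7 and the lowest for Mt-nd4l (2.62 CPM, against 2.80 CPM in RYGB_CL). Groups next to each other in these orders overlapped, except Sham_IL and RYGB_CL for Mt-nd4, so apart from that pair no step between neighbours exceeded the spread of the samples.

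In the OLE cohort the group means lay close together for most subunits. Mt-nd1 had 1186 ± 341 CPM (SD, n = 4) in Nonglucotonic_OLE, 1168 ± 479 CPM (n = 3) in Sham_OLE and 1141 ± 245 CPM (n = 4) in Glucotonic_OLE. The same order, Nonglucotonic_OLE, then Sham_OLE, then Glucotonic_OLE, held for Mt-nd2, Mt-nd4 and Mt-nd4l, the first of them at 1247 ± 438, 1184 ± 432 and 1017 ± 382 CPM. Mt-nd3 was the only subunit with its highest mean in Glucotonic_OLE, at 293 ± 25.3 CPM, and Mt-nd5 and Mt-nd6 had theirs in Sham_OLE, at 1158 ± 486 and 57.2 ± 16.1 CPM. All neighbours in these orders overlapped. The orders were the same without Glucotonic_OLE 19, also tried after seeing the data, but on CPM without TMM and the 2 largest IDs Mt-nd1 was highest in Sham_OLE.

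The sham jejunum group had large SDs, with 1 sample above the others. For Mt-nd1, the subunit beside the ubiquinone site, Sham_JEJU 14-28 had 246 CPM and the other sham jejunum samples had 94.0 (8-15) and 73.8 (15-30). For Mt-nd2, sample 14-28 had 58.4 CPM against 13.9 and 9.78. It was the highest of the 12 samples of the cohort for all of the subunits, and the 2 largest IDs took 1.58% of its counts against 0.334% and 0.212% in the other sham jejunum samples. Whether the 2 are linked was not tested.

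The subunits varied unequally between samples. Mt-nd3 had the smallest spread in both cohorts (CPM on TMM-scaled libraries, also for the ratios that follow). Its coefficient of variation was 26.5% over the 12 samples of the first cohort and 17.0% over the 11 OLE samples. The highest sample was 2.58 times the lowest for Mt-nd3 in the first cohort, and 11.4 times for Mt-nd6. In the OLE cohort these ratios were 1.85 for Mt-nd3 and 5.08 for Mt-nd6. In the first cohort the lowest count was 30 for Mt-nd6 in RYGB_AL 15-29, with an exact Poisson 95% interval of 20.2 to 42.8 that covers counting error only. The lowest counts of the next subunits were 51 for Mt-nd4 and 63 for Mt-nd4l, and every OLE sample had at least 274 counts on each subunit.

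**Figure D2:**
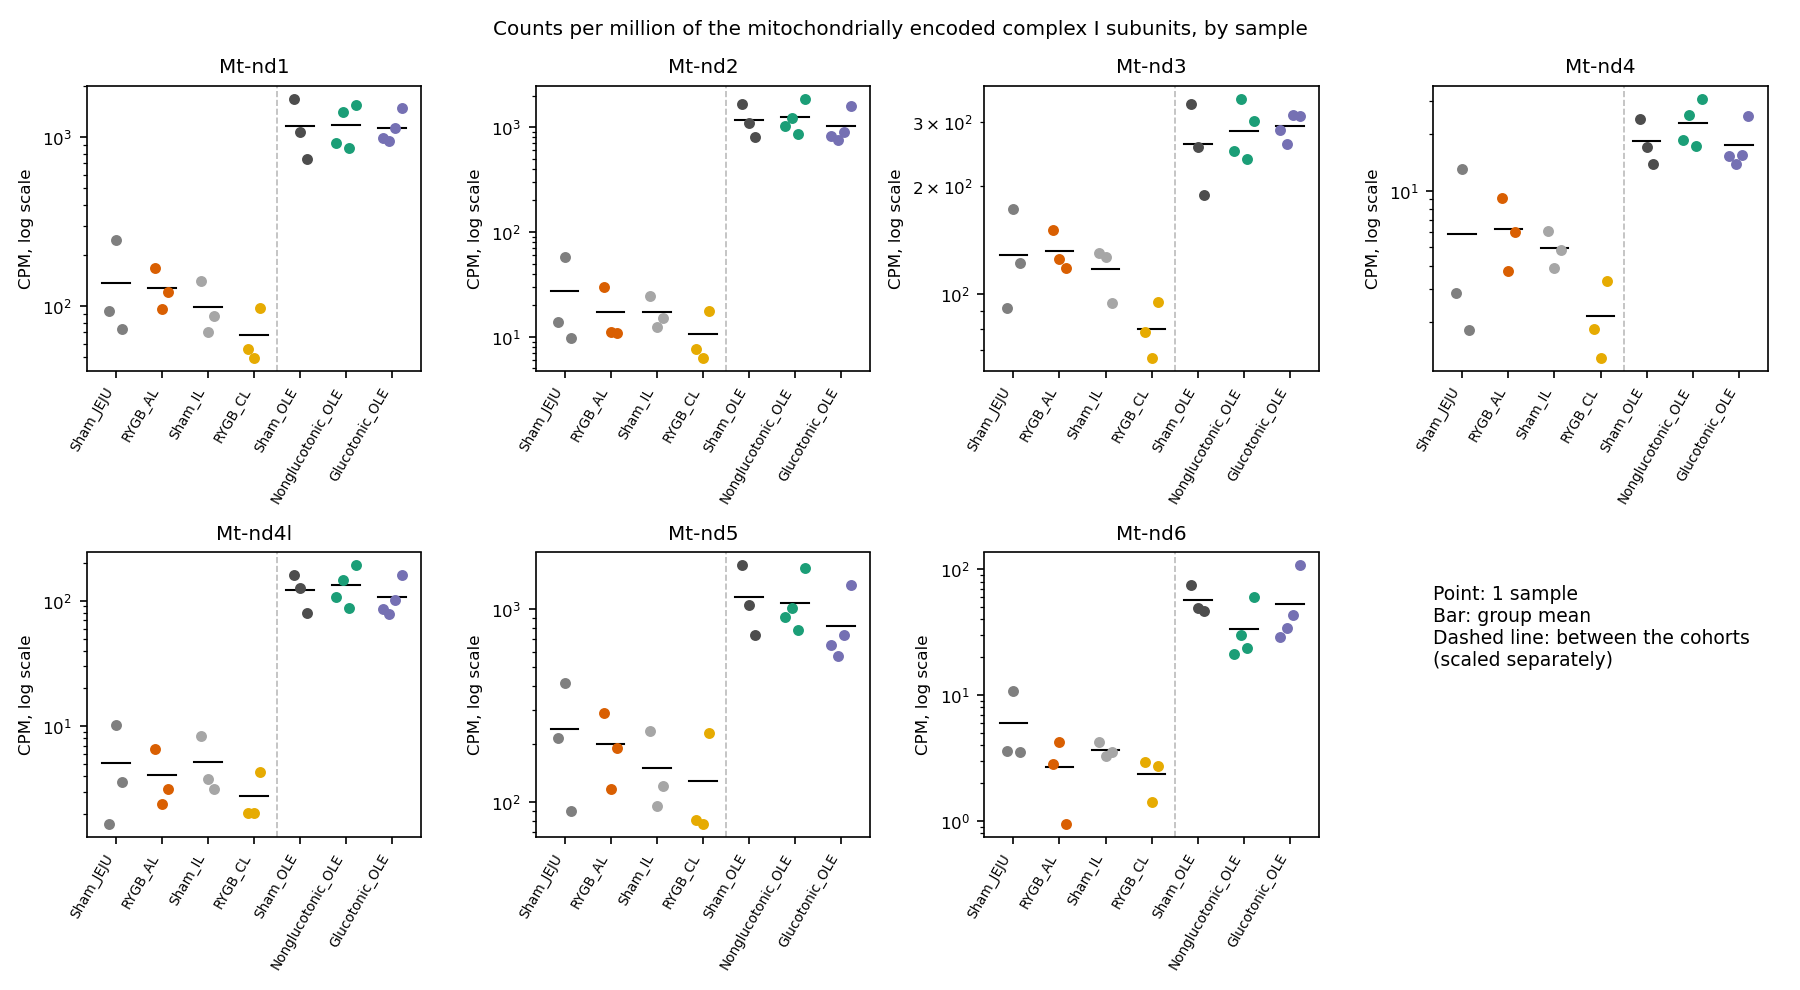
Level of each subunit in each sample (CPM on TMM-scaled libraries, log axis; each cohort scaled on its own), with 1 panel per subunit. Points are samples by group and bars are group means; the RYGB_CL mean is the lowest of the first cohort in every panel on this scale, and Sham_JEJU 14-28 stands above the other sham jejunum samples, as at 246 CPM for Mt-nd1.

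The first question of the design was whether the alimentary limb after RYGB differs from sham jejunum. For the subunits, 0 of 7 passed an adjusted p of 0.05 in edgeR's quasi-likelihood test with Benjamini-Hochberg adjustment over all 16146 IDs tested, of which 7.66% passed. None had an unadjusted p under 0.05, where 22.2% of all IDs did, and DESeq2 called 0 of 7 and 12.6% of all IDs. The median log2 difference of the 7 (RYGB_AL minus Sham_JEJU) was -0.26, beside -0.01 over all IDs. The differences ran from -1.15 (Mt-nd6) to 0.10 (Mt-nd4), with 5 of 7 below 0, as were 50.8% of all IDs. On total counts without TMM, Mt-nd3 was also below 0, at -0.017.

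Mt-nd6 came nearest to the threshold in that comparison. It stood at 2.84 (1-1), 4.23 (2-3) and 0.939 CPM (15-29) in the alimentary limb and at 3.58 (8-15), 10.7 (14-28) and 3.56 CPM (15-30) in sham jejunum. The groups overlapped, since RYGB_AL 2-3 lay above 2 of the sham samples. The log2 difference was -1.15 (SE 0.54, edgeR, adjusted p = 0.242). These values depended on Sham_JEJU 14-28: without it, the difference of Mt-nd6 was -0.42, and those of the other 6 were all above 0, with Mt-nd4 at 1.43, Mt-nd4l at 0.63, Mt-nd1 at 0.62, Mt-nd2 at 0.54, Mt-nd5 at 0.40 and Mt-nd3 at 0.29.

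The common limb after RYGB was set against sham ileum as the second comparison. All 7 subunits had log2 differences below 0 (RYGB_CL minus Sham_IL), but none passed the adjusted test in edgeR, and 0% of all IDs passed it. The sign of Mt-nd5 turned in 3 of the fits with 1 sample left out, to 0.25 without Sham_IL 8-15. Mt-nd3 alone had an unadjusted p under 0.05, as did 7.85% of all IDs, and DESeq2 called 0 of 7 and 0.578% of all IDs. The median log2 difference of the 7 was -0.65, from -1.21 (Mt-nd4) to -0.22 (Mt-nd5), beside 0.05 over all IDs, of which 44.6% were lower in the fit. The groups did not overlap for 2 of the 7, Mt-nd4 and Mt-nd6, both lower, where 6.73% of all IDs were lower without overlap.

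Mt-nd4, an antiporter-like subunit, stood at 1.85 (1-1), 1.29 (2-3) and 3.31 CPM (15-29) in the common limb and at 6.13 (8-15), 3.902 (14-28) and 4.83 CPM (15-30) in sham ileum. Every common limb sample lay below every sham ileum sample, with 15-29 nearest. The log2 difference was -1.21 (SE 0.65, edgeR, adjusted p = 0.669). Mt-nd6 stood at 2.91, 1.42 and 2.71 CPM in the common limb and at 4.24, 3.30 and 3.495 CPM in sham ileum, in the same order of samples. The groups were again apart, by a small gap, and the log2 difference was -0.65 (SE 0.55, edgeR, adjusted p = 0.764). For Mt-nd3, the values of 78.7, 66.6 and 94.9 CPM in the common limb met those of 130, 127 and 94.6 CPM in sham ileum, with a log2 difference of -0.55 (SE 0.23, edgeR, adjusted p = 0.612).

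Between the sham segments, ileum against jejunum, 0 of 7 subunits passed in edgeR, where 9.22% of all IDs did, and 0 had an unadjusted p under 0.05, where 28.1% did. DESeq2 called 0 of 7 and 16.4% of all IDs. The log2 differences (Sham_IL minus Sham_JEJU) ran from -0.69 (Mt-nd6) to 0.01 (Mt-nd4l), with a median of -0.47 beside 0.03 over all IDs. For 6 of 7 the difference was below 0, as it was for 47.9% of all IDs. Without Sham_JEJU 14-28 the direction turned: 6 of 7 were above 0, from 0.06 (Mt-nd6) to 1.10 (Mt-nd4), and Mt-nd5 was at -0.0037. On total counts without TMM, which moved the median of all IDs by 0.32 here, Mt-nd3 was at 0.17 and Mt-nd4 at 0.02. This comparison shares its sham samples with the 2 before it.

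The common limb against the alimentary limb gave the values nearest to a call in the study. All 7 subunits had log2 differences below 0 (RYGB_CL minus RYGB_AL), although Mt-nd6 was at 0.16 on total counts without TMM, a scaling that moved the median of all IDs by 0.33. Mt-nd6 was also at 0.015 with the number as a block and at 0.30 without RYGB_AL 2-3, and Mt-nd4l was at 0.0067 without RYGB_AL 1-1. The median log2 difference of the 7 was -0.71, beside 0.04 over all IDs, of which 47% were lower in the fit. By edgeR 0 of 7 passed, where 9.32% of all IDs did, and 2 of 7 (Mt-nd3 and Mt-nd4) had an unadjusted p under 0.05, where 29.2% of all IDs did. The same 2 were lower without overlap between the groups, as were 16.9% of all IDs. DESeq2 called 1 of 7, Mt-nd3, and 17.2% of all IDs.

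Mt-nd3, the small subunit near the ubiquinone site, stood at 78.7 (1-1), 66.6 (2-3) and 94.9 CPM (15-29) in the common limb and at 151, 125 and 118 CPM in the alimentary limb, in the same order of numbers. All common limb samples lay below all alimentary limb samples. The fold was 0.609 (95% interval 0.429 to 0.864), a log2 difference of -0.72 (SE 0.23), with an adjusted p = 0.0713 in edgeR and 0.0375 in DESeq2. The call turned on the tool and on 1 sample. Without RYGB_CL 15-29, edgeR called Mt-nd3, with a log2 difference of -0.86 and an adjusted p = 0.0494, in a fit where 13.4% of all IDs passed. The 2 largest IDs took 0.961% of the counts of that sample against 0.192% and 0.274% in the other common limb samples, and the part of this in the result was not tested. Over 13 alternatives the difference ran from -0.86 to -0.40 and the adjusted p from 0.0375 to 0.215.

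Mt-nd4 stood at 1.85, 1.29 and 3.31 CPM in the common limb and at 9.13, 3.74 and 6.01 CPM in the alimentary limb, in that order of numbers. The groups did not overlap, with RYGB_CL 15-29 and RYGB_AL 2-3 nearest to each other. The log2 difference was -1.55 (SE 0.65, edgeR, adjusted p = 0.142), and -2.01 to -1.19 over 13 alternatives. For Mt-nd1 the groups met, at 55.7, 49.6 and 97.0 CPM against 169, 96.3 and 121 CPM, with a log2 difference of -0.94 (SE 0.45, edgeR, adjusted p = 0.188). The other 4 subunits had log2 differences from -0.71 (Mt-nd2) to -0.20 (Mt-nd6).

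Whether surgery acted differently in the 2 limbs was tested as an interaction (RYGB_AL minus Sham_JEJU, less RYGB_CL minus Sham_IL). By edgeR 0 of 7 subunits passed, where 0.607% of all IDs did, and 0 had an unadjusted p under 0.05, where 12.5% did. DESeq2 called 0 of 7 and 3.75% of all IDs. The interaction values ran from -0.49 (Mt-nd6) to 1.31 (Mt-nd4, SE 0.91) on the log2 scale, with a median of 0.47 beside -0.07 over all IDs. Without Sham_JEJU 14-28 all 7 were above 0 and still 0 passed, with Mt-nd4 at 2.63 (SE 0.64, edgeR, adjusted p = 0.136), Mt-nd2 at 1.25, Mt-nd1 at 1.17 and Mt-nd6 lowest at 0.23. For Mt-nd3, the most precise, the interaction was 0.58 with a 95% interval of -0.13 to 1.30, which as a ratio of folds is 0.915 to 2.45.

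**Figure D3:**
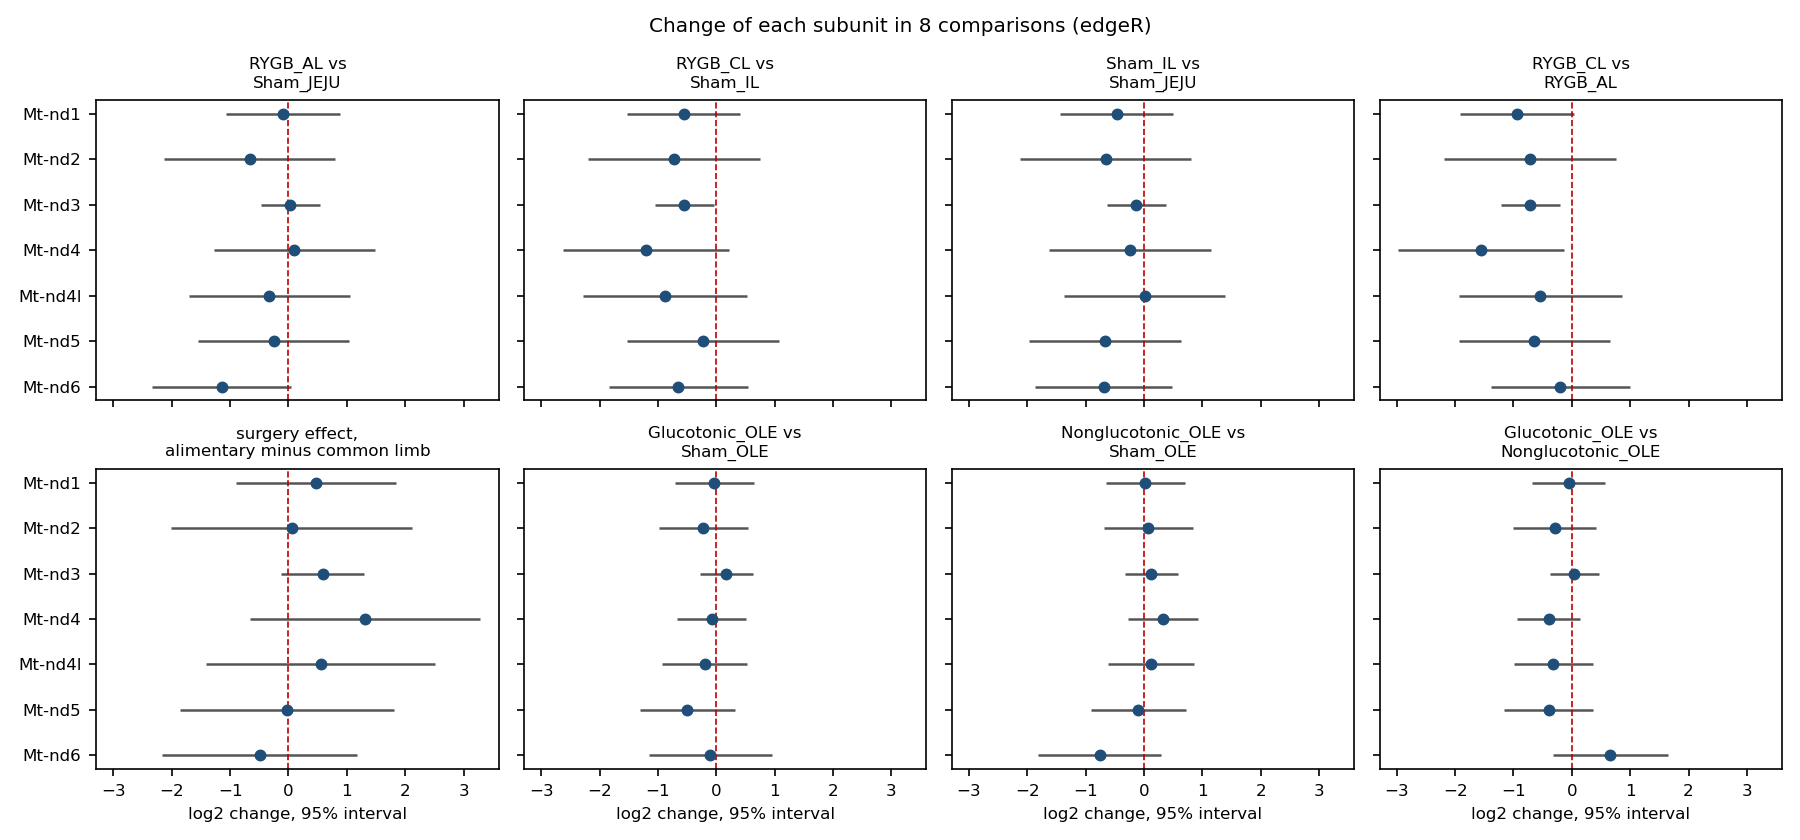
Log2 difference of each subunit in each comparison, from edgeR; points are estimates and lines are 95% intervals, and the vertical line marks 0. In RYGB_CL against RYGB_AL all 7 points lie below 0 (Mt-nd6 was above 0 on total counts without TMM). Before adjustment for multiple testing, the intervals of Mt-nd3 and Mt-nd4 do not reach 0 there. Nor does that of Mt-nd3 in RYGB_CL against Sham_IL (-1.06 to -0.046). In the OLE comparisons every interval crosses 0.

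In the OLE cohort, Glucotonic_OLE sections were set against sham distal intestine. By edgeR 0 of 7 subunits passed, as against 5 of 14495 IDs (0.0345%). None of the 7 had an unadjusted p under 0.05, where 16.4% of all IDs did, and DESeq2 called 0 of 7 and 4.01% of all IDs. The median log2 difference of the 7 was -0.10 (from -0.49 to 0.17), beside -0.02 over all IDs, and 6 of 7 were below 0, as were 52.3% of all IDs. Total counts without TMM moved the median of all IDs by -0.15 here and left the sign of all 7 as it was. Without Sham_OLE 4, however, 6 of 7 were above 0, with Mt-nd1 at 0.31, Mt-nd4 at 0.15, Mt-nd6 at 0.14, Mt-nd2 at 0.087 and Mt-nd4l at 0.045.

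Mt-nd5, the antiporter-like subunit at the far end of the membrane arm, differed most in that comparison. It stood at 653 (13), 570 (16), 734 (18) and 1333 CPM (19) in Glucotonic_OLE and at 1690 (4), 1049 (22) and 735 CPM (23) in Sham_OLE. Numbers 13, 16 and 18 lay below all sham samples, 18 only just, and 19 lay among them. The log2 difference was -0.49 (SE 0.37, edgeR, adjusted p = 0.52). Without both sections of number 19 it was -0.83, with an adjusted p = 0.0698, in a fit where 13% of all IDs passed. Without Sham_OLE 4 it was -0.13 (edgeR, adjusted p = 0.873). Mt-nd3 was the only subunit above 0, at 0.17 (SE 0.21, and -0.0086 without Sham_OLE 23), with 261 to 314 CPM in Glucotonic_OLE and 188 to 338 CPM in Sham_OLE.

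Against the same sham samples, the Nonglucotonic_OLE sections showed 0 of 7 subunits and 0% of all IDs passing in edgeR. At an unadjusted p under 0.05, 0 of 7 subunits and 6.46% of all IDs passed, and DESeq2 called 0 of 7 and 0.216% of all IDs. The median log2 difference was 0.07, beside -0.02 over all IDs, with 5 of 7 above 0, as were 46.8% of all IDs. This direction did not hold with other samples or libraries. Of the 7, 2 were above 0 without both sections of number 19, 1 with lane 7 as a covariate and 1 without Sham_OLE 23, and Mt-nd1 was at -0.000113 on total counts without TMM. Mt-nd4 was the highest, at 0.32 (SE 0.27), and Mt-nd6 the lowest, at -0.76.

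Mt-nd6, the subunit read from the other strand, stood at 21.2 (13), 29.8 (16), 23.7 (18) and 60.7 CPM (19) in Nonglucotonic_OLE and at 75.7 (4), 49.1 (22) and 46.7 CPM (23) in Sham_OLE. Numbers 13, 16 and 18 lay below all sham samples, and 19 lay among them. The log2 difference was -0.76 (SE 0.48, edgeR, adjusted p = 0.796). Without both sections of number 19 it was -1.20 (SE 0.22, edgeR, adjusted p = 0.0421), in a fit where 157 of 14307 IDs (1.1%) passed. Leaving out only the Nonglucotonic_OLE section of number 19 also gave -1.20, with an adjusted p = 0.347.

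Over 17 alternatives the log2 difference of Mt-nd6 kept its sign and ran from -1.55 to -0.51. All Sham_OLE libraries were sequenced on lane 7, per the labels, whereas 1 library of each RYGB group was. With lane 7 as a covariate the difference was -1.55 (SE 0.59, edgeR, adjusted p = 0.993), and with lane 7 libraries alone it was -1.37. Within lane 7 the RYGB group held 1 library, of number 13, which was assumed to vary like the sham libraries.

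The last comparison set glucotonic against non-glucotonic sections, which share the numbers 13, 16, 18 and 19. Both sections of 13 were on lanes 4 and 7, and both of 16 on lane 4. The glucotonic section of 18 was on lane 4 and that of 19 on lane 6, with their non-glucotonic sections on lane 5. Section and lane therefore differ together within 18 and 19. By edgeR without regard to number, 0 of 7 subunits and 0% of all IDs passed, with an unadjusted p under 0.05 in 0 of 7 and in 2.68% of all IDs. DESeq2 called 0 of 7 and 0.0207% of all IDs. The median log2 difference (Glucotonic_OLE minus Nonglucotonic_OLE) was -0.29, beside 0.0021 over all IDs, and 5 of 7 were below 0, as were 49.5% of all IDs. Mt-nd6 was at 0.66 and Mt-nd3 at 0.04 (-0.08 on total counts without TMM, which moved the median of all IDs by -0.14), whereas the others ran from -0.40 (Mt-nd4 and Mt-nd5) to -0.06 (Mt-nd1, and 0.096 without Nonglucotonic_OLE 19).

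Mt-nd6 was higher in the glucotonic section of all 4 numbers. The share of all IDs that keep 1 direction in all 4 numbers is not given here. Its levels were 28.8 CPM in the glucotonic and 21.2 CPM in the non-glucotonic section of number 13, 34.2 and 29.8 CPM in 16, 43.0 and 23.7 CPM in 18, and 107 and 60.7 CPM in 19. The 2 groups overlapped, and number 19 was the highest in both. Per number, the log2 differences were 0.20 to 0.86. With the number as a block, the log2 difference was 0.58 (SE 0.12, edgeR, adjusted p = 0.0954), where 0.179% of all IDs passed, so Mt-nd6 did not pass there either. Without the glucotonic section of number 19 the unblocked difference was 0.06.

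Mt-nd4 and Mt-nd5 were lower in the glucotonic section of all 4 numbers, again without the share of all IDs beside it. Mt-nd5 stood at 653 and 910 CPM in the glucotonic and non-glucotonic section of number 13, at 570 and 1015 CPM in 16, at 734 and 778 CPM in 18, and at 1333 and 1631 CPM in 19. The gap was widest in number 16 and narrowest in 18. With the number as a block the log2 difference of Mt-nd5 was -0.43 (SE 0.13, edgeR, adjusted p = 0.225), and that of Mt-nd4 -0.40 (SE 0.12, adjusted p = 0.212). Mt-nd2 was lower in 3 of 4 numbers (blocked log2 difference -0.30, adjusted p = 0.386), Mt-nd4l in 3 of 4 and Mt-nd1 in 2 of 4, and Mt-nd3 was higher in 3 of 4.

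Ratios between the subunits do not depend on the scaling of the libraries. They were chosen after the values were seen and carry no test. Per 1000 counts of the other 6 subunits, Mt-nd6 had 6.56 (13), 7.12 (16), 8.32 (18) and 10.9 counts (19) in Nonglucotonic_OLE. In Glucotonic_OLE it had 10.1, 13.05, 13.4 and 21.9 in the same order, and in Sham_OLE 13.6 (4), 13.6 (22) and 18.2 (23). All 4 non-glucotonic sections lay below all 3 sham samples, while the glucotonic sections spread around the sham samples. The sham samples were all sequenced on lane 7, and the part of lane in this ratio was not tested. Within a number the glucotonic section had 1.54 (13), 1.83 (16), 1.61 (18) and 2.01 times (19) the ratio of the non-glucotonic one.

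For Mt-nd5 counts per Mt-nd1 count, the glucotonic section was the lower one of each number. In numbers 18 and 19 the sections were also on different lanes. The ratio was 0.974 to 1.00 in Sham_OLE, 0.719 to 1.06 in Nonglucotonic_OLE and 0.601 to 0.895 in Glucotonic_OLE. All glucotonic sections lay below all sham samples, which were all sequenced on lane 7. In number 13, whose libraries were on 2 lanes, the ratio differed between the libraries of a section. It was 0.542 on lane 4 and 0.799 on lane 7 in the glucotonic section, and 0.870 and 1.08 in the non-glucotonic one. These libraries carry different index sequences, so lane and library preparation cannot be told apart. The step between the libraries of 1 section was close in size to that between sections on 1 lane. The part of such a library step in the comparisons with sham and between sections was not tested. Within a number the glucotonic section had 0.668 (13), 0.835 (16), 0.722 (18) and 0.847 times (19) the ratio of the non-glucotonic one. In the first cohort the ratio of Mt-nd5 to Mt-nd1 was 1.22 to 2.35, above every OLE sample, and Mt-nd6 had 2.08 to 12.8 counts per 1000 of the other 6.

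Because Mt-nd6 lies on the other strand, reads from RNA opposite to it can be told apart from its own only if counting used strand. The libraries were stranded per the labels' protocol, but the sources used here do not give the counting setting. The part of opposite-strand reads, and of reads from copies of mitochondrial DNA in the nuclear genome, was not tested.

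**Figure D4:**
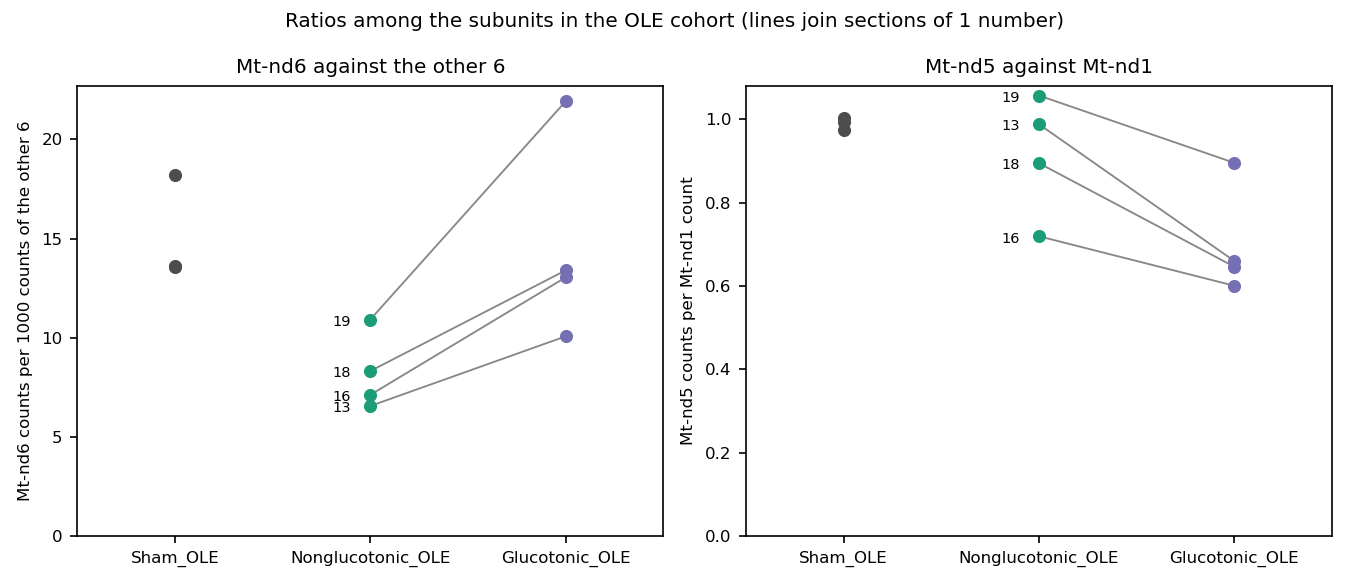
Left, Mt-nd6 counts per 1000 counts of the other 6 subunits; right, Mt-nd5 counts per Mt-nd1 count, in each OLE sample. Points are samples and lines join the sections of the numbers 13, 16, 18 and 19; every line rises on the left, by 1.54 to 2.01 times, and falls on the right, to 0.668 to 0.847 times.

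Across samples the subunits varied together to different degrees. Over the 12 samples of the first cohort, Pearson's r between log2 CPM of 2 subunits had a median of 0.78 over the 21 pairs and ran from 0.391 to 0.936. The 6 pairs with Mt-nd6 were the loosest as a group, at 0.391 to 0.67, while the other 15 ran from 0.63 to 0.936. Over the 11 OLE samples the 21 pairs ran from 0.324 to 0.982, the pairs with Mt-nd6 from 0.324 to 0.672 and the others from 0.502 to 0.982. These are descriptions over samples that share library scaling, and, in the OLE cohort, numbers.

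The IDs whose level followed the mean log2 CPM of the 7 subunits most closely were also sought among IDs with a mean of at least 5 CPM. In the first cohort these were ENSRNOG00000057502 (r = 0.928 over 12 samples) and ENSRNOG00000031766 (r = 0.918), of 10938 IDs. In the OLE cohort they were ENSRNOG00000031766 (r = 0.964 over 11 samples) and ENSRNOG00000002693 (r = 0.952), of 9304 IDs. ENSRNOG00000031766 was thus among the closest 2 in each cohort, whereas ENSRNOG00000057502 had r = 0.699 in the OLE cohort and ENSRNOG00000002693 had r = -0.128 in the first. ENSRNOG00000043866, the larger of the 2 IDs that dominated the OLE libraries, had r = 0.871 over the first cohort's samples and 0.456 over those of the OLE cohort.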

How the data were processed

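Per the labels' protocols, total RNA was column-purified and made into stranded, rRNA-depleted libraries. The submitters' processing notes name FastQC, STAR and rat build rn6. How reads were counted (tool, annotation, strand, multi-mapping) is not given in the sources used here. Whole-number read counts per Ensembl ID, not normalized, were deposited by the authors for 25 libraries. The 2 libraries of number 13 within each OLE RYGB group were summed, which left 23 samples. Their column names carry different index sequences, and the non-glucotonic ones are labelled 13-33 and 13-34. The labels do not say whether they came from 1 piece of tissue.

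A separate fit across all IDs was made for each cohort with edgeR 4.0.16 in R 4.3.3: filterByExpr by group (minimum count 10, minimum total 15), TMM scaling, a robust quasi-likelihood test, Benjamini-Hochberg adjusted, threshold 0.05. Sections of 1 number entered the unblocked OLE fit as independent samples. Each SE is the log2 difference over the square root of F, and intervals cover 95%. CPM were computed from the counts. The test was tried on simulated counts first. Alternatives were DESeq2 1.42.0, its size factors in edgeR, total counts without TMM, scaling without the subunits and the 2 largest IDs, no low-count filter, only the compared groups, each replicate left out, number 19 left out, number 13 libraries apart, lane 7, and the replicate number as a block.

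Sections with 1 OLE number were treated as pairs. Within a number, the samples' departures from their group means (log2 CPM, prior count 2) correlated at r = 0.467 (13), 0.43 (16), 0.341 (18) and 0.811 (19). The labels do not say that a number is 1 rat, and the highest r of either section with another number was 0.412, 0.444, 0.444 and -0.275, above the own number's r for 16 and 18.

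The members and lists were chosen with earlier results of these data known. Rule for names: all 7 subunits in every comparison, and in each cohort the 2 IDs most correlated with their mean. The 3 lists of related genes (nuclear complex I subunits, other mitochondrial genes, mitochondrial transcription factors) and the cell type markers could not be applied, since 0 IDs were paired with a symbol by the reference table. That table also held 0 mitochondrial genes, so no lengths, positions or sequences are given.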

Additional observations from a re-analysis of the deposited data

Results flagged for a closer look

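Mt-nd4 in Glucotonic_OLE 19 stood at 25.1 CPM, far above the other 3 glucotonic sections at 13.9 to 15.6 CPM, and was set apart because the gap to its neighbour, divided by the group's range, was 0.849, above Dixon's critical value for 4 samples. It was 1 of 18 sets of values examined, and chance alone marks about 1 in 20 such sets. In the same sample the 2 largest IDs took 65.9% of all counts, the highest of the OLE cohort, and whether the 2 are linked was not tested. It was also the only OLE sample on lane 6, so its values and that lane cannot be told apart.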

How the results depend on the processing

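Over 120 alternative fits of the 8 comparisons, 117 called 0 of the 7 subunits and 3 called 1. For RYGB_CL against RYGB_AL, DESeq2 called 1 (Mt-nd3), and leaving out 1 sample at a time gave 0 to 1 called, the 1 without RYGB_CL 15-29. For Nonglucotonic_OLE against Sham_OLE, 1 (Mt-nd6) was called without both sections of number 19. On CPM without the 2 largest IDs and without TMM, 22 group means moved by more than their SD and 27 did not. Those IDs took 45.7% to 65.9% of an OLE sample, so leaving them out of the total by itself raises every OLE CPM. The mean of Mt-nd1 in Sham_OLE, for example, went from 1168 to 2563 CPM. The count of moved means therefore does not measure how stable the values are. The sign of log2 differences up to 0.69 in size turned under several settings, and the cause was not tested.

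On total counts without TMM, Mt-nd3 was at -0.017 in RYGB_AL against Sham_JEJU, at 0.17 in Sham_IL against Sham_JEJU and at -0.083 in Glucotonic_OLE against Nonglucotonic_OLE. Under the same setting Mt-nd4 was at 0.022 in Sham_IL against Sham_JEJU, Mt-nd6 at 0.16 in RYGB_CL against RYGB_AL, and Mt-nd1 at -0.000113 in Nonglucotonic_OLE against Sham_OLE. In the last of these comparisons, leaving out number 19 gave -0.12 (Mt-nd1), -0.18 (Mt-nd2) and -0.11 (Mt-nd4l). Lane 7 as a covariate gave -0.37 (Mt-nd1), -0.13 (Mt-nd2), -0.023 (Mt-nd3) and -0.19 (Mt-nd4l), lane 7 alone gave -0.30 (Mt-nd1), -0.016 (Mt-nd2) and -0.10 (Mt-nd4l), and keeping the libraries of number 13 apart gave -0.017 (Mt-nd1). In Glucotonic_OLE against Sham_OLE, lane 7 alone gave -0.064 (Mt-nd3). In Glucotonic_OLE against Nonglucotonic_OLE, Mt-nd1 was at 0.0079 without lane 7.

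With 1 sample left out at a time, 32 of 56 log2 differences changed sign at least once. Their ranges in RYGB_AL against Sham_JEJU were -0.41 to 0.62 (Mt-nd1), -1.31 to 0.54 (Mt-nd2), -0.16 to 0.29 (Mt-nd3), -0.35 to 1.43 (Mt-nd4), -0.87 to 0.63 (Mt-nd4l) and -0.66 to 0.40 (Mt-nd5). In Sham_IL against Sham_JEJU they were -0.80 to 0.26 (Mt-nd1), -1.06 to 0.56 (Mt-nd2), -0.33 to 0.15 (Mt-nd3), -0.68 to 1.10 (Mt-nd4), -0.55 to 0.99 (Mt-nd4l) and -0.96 to 0.061 (Mt-nd6). The interaction ran from -0.60 to 1.25 (Mt-nd2), -0.0068 to 1.4996 (Mt-nd4l), -0.50 to 0.67 (Mt-nd5) and -1.002 to 0.23 (Mt-nd6). For all of these but Mt-nd5 in the interaction, the highest value was without Sham_JEJU 14-28. RYGB_CL against Sham_IL gave -0.93 to 0.25 (Mt-nd5), and RYGB_CL against RYGB_AL gave -0.99 to 0.0067 (Mt-nd4l) and -0.60 to 0.30 (Mt-nd6).

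In Glucotonic_OLE against Sham_OLE the ranges were -0.27 to 0.31 (Mt-nd1), -0.49 to 0.087 (Mt-nd2), -0.0086 to 0.39 (Mt-nd3), -0.27 to 0.15 (Mt-nd4), -0.44 to 0.045 (Mt-nd4l) and -0.67 to 0.14 (Mt-nd6). In Nonglucotonic_OLE against Sham_OLE they were -0.21 to 0.37 (Mt-nd1), -0.19 to 0.38 (Mt-nd2), -0.053 to 0.34 (Mt-nd3), -0.11 to 0.36 (Mt-nd4l) and -0.36 to 0.27 (Mt-nd5). The highest value in both was without Sham_OLE 4 for each subunit named. Glucotonic_OLE against Nonglucotonic_OLE gave -0.21 to 0.096 (Mt-nd1) and -0.035 to 0.15 (Mt-nd3).

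The replicate number as a block called 0 of 7 subunits in each comparison where groups share numbers. First-cohort samples share only a number: r within a number was -0.048, 0.275 and 0.166 for RYGB_CL with RYGB_AL and 0.03, 0.064 and 0.087 for Sham_IL with Sham_JEJU. There the block gave 190 of 15350 IDs (1.24%) called in RYGB_CL against RYGB_AL, with Mt-nd6 at 0.015 and Mt-nd3 at -0.67 (edgeR, adjusted p = 0.107), and 690 of 15285 (4.51%) in Sham_IL against Sham_JEJU, with Mt-nd4 at 0.31. In the OLE pairing the block called 25 of 14004 IDs.

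With 3 or 4 samples a group, SEs were 0.19 to 0.94 on the log2 scale. They did not follow depth for every subunit. In RYGB_AL against Sham_JEJU, Mt-nd6, with counts from 30, had an SE of 0.54, and Mt-nd5, with at least 3665 counts, one of 0.59. Mt-nd3 and Mt-nd1 had SEs of 0.23 and 0.44 there, and Mt-nd2, Mt-nd4 and Mt-nd4l, with fewer counts, had 0.67, 0.63 and 0.63. Mt-nd2 had more counts than Mt-nd4 and Mt-nd4l but no smaller an SE.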

Other observations

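Number 13 had 2 libraries in each RYGB group, from lanes 4 and 7, which were summed above. Apart, Mt-nd6 had 10.7 counts per 1000 of the other 6 subunits in the glucotonic library of lane 4 and 9.43 in that of lane 7, against 7.05 and 6.23 in the non-glucotonic libraries of lanes 4 and 7. Both glucotonic libraries lay above both non-glucotonic ones. For Mt-nd5 counts per Mt-nd1 count, the glucotonic library of lane 7, at 0.799, lay nearer to the non-glucotonic library of lane 4, at 0.870, than to the glucotonic one of lane 4, at 0.542.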
